A study of Mus musculus with 9 samples.

Results

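The comparison is between oocytes of stressed mice that then received a herbal recipe, Kai Yu Zhong Yu (KYZY), and oocytes of mice that were stressed only. It takes 6 of the 9 samples of the series, chosen by their treatment labels, 3 KYZY and 3 stress libraries, and follows all genes of the expression tables, of which 13890 of 24736 had enough counts to be tested. The series was made to study how the recipe acts on oocyte quality in the stressed mouse, and the present comparison asks which oocyte transcripts differ once the recipe follows the stress. The other 3 libraries, from unstressed mice, enter the estimate of the spread, and their values stand beside the results.

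KYZY mice had a daily stressor for 6 weeks and then 0.1 ml of the decoction by gavage each day for 4 weeks. Stress mice had the same stressors, which were tail pinch, swimming in cold water, loss of food or water, wet bedding, continuous light and restraint, a protocol known as chronic unpredictable mild stress. Control mice had no stress. All mice were ICR females, an outbred strain, labelled 4 to 5 weeks old, and all received 7.5 IU of PMSG and 7.5 IU of hCG, hormones that ripen follicles and trigger ovulation. Oocytes arrested at the second meiotic metaphase were taken from the oviducts 16 hours after hCG and freed of their surrounding cumulus cells with hyaluronidase, and 15 oocytes of 1 mouse made 1 library. No stressed group that was given a vehicle by gavage is labelled, and the labels do not say whether stress mice also waited the 4 weeks of gavage. The KYZY libraries carry a different description of the sequencing run from the stress and control libraries, so sequencing run and recipe cannot be told apart.

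An oocyte at this stage does not transcribe its genes. It lives on messenger RNA stored during growth, and from maturation onward it translates, deadenylates and degrades these messages in a set order, so a transcript level here reflects what was stored and how much of it is left. The cDNA was primed on poly(A) tails, so a message whose tail was shortened can also give less signal without having been lost. Energy comes mainly from pyruvate, which neighbouring cumulus cells make from glucose and which the oocyte's mitochondria burn through pyruvate dehydrogenase and the citric acid cycle.

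Total counts were 74216425, 67892072 and 46324094 in KYZY 1, 2 and 3 and 75395961, 106990821 and 80606254 in stress 1, 2 and 3. All 14 oocyte markers were above the detection floor in each of the 9 libraries. Gdf9, a growth factor secreted by the oocyte, was at 16000, 10500 and 9850 CPM in KYZY against 12800, 12300 and 15500 CPM in stress libraries, where CPM is a count relative to the library size, corrected with TMM factors. Markers of the cells that surround the oocyte were uneven within each group. The mean log2(CPM + 1) over 40 cumulus and granulosa cell markers was 2.6 and 2.53 in KYZY 2 and 3, 1.86 in stress 3 and 2.05 in control 3, against 0.98 to 1.22 in the other 5 libraries. KYZY thus holds 2 such libraries and stress 1. List medians and many gene values below are given both with all libraries and for KYZY 1 against stress 1 and 2. Over all genes the median log2 fold change of KYZY over stress was 0.01 with all libraries and -0.09 in KYZY 1 against stress 1 and 2.

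**Figure D1:**
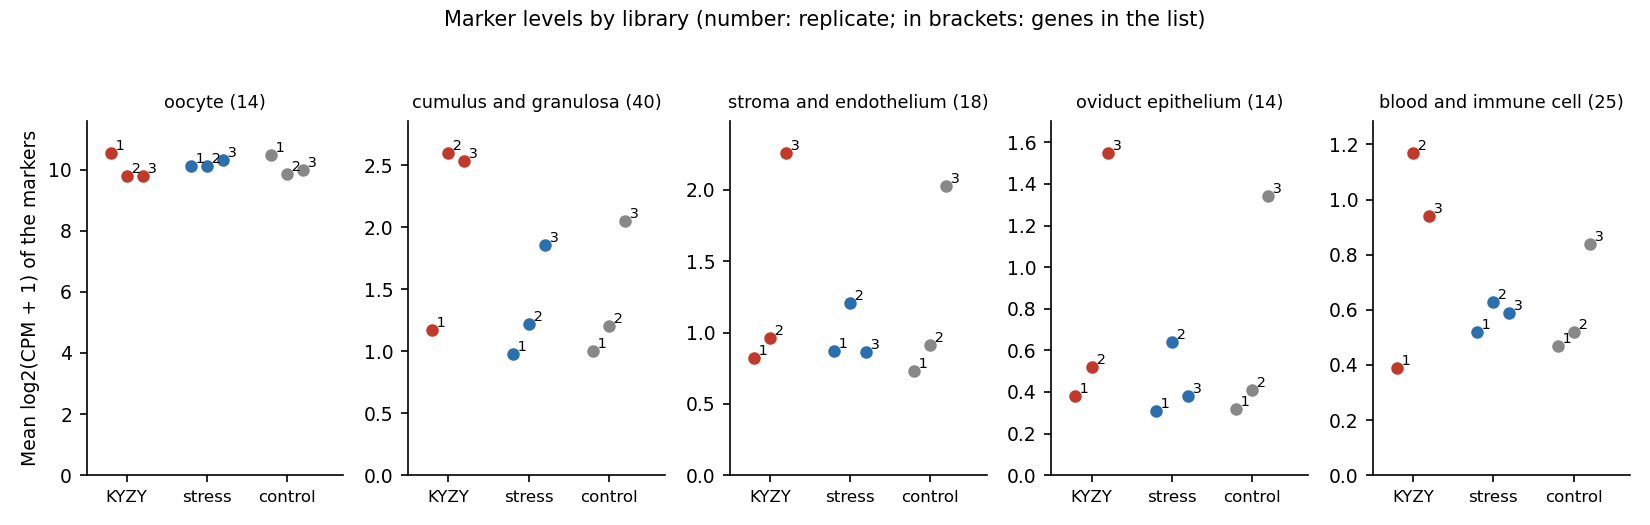
Mean log2(CPM + 1) of marker genes in each library, for KYZY, stress and control, with 1 panel per marker list and replicate numbers beside the points. Oocyte markers lie between 9.78 and 10.55 in all libraries, while cumulus and granulosa cell markers are highest in KYZY 2 and KYZY 3, and oviduct, stroma and endothelium markers are highest in KYZY 3 and control 3.

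No gene passed the test of KYZY against stress. edgeR's quasi-likelihood test with Benjamini-Hochberg adjustment called 0 of 13890 genes (0%), and the smallest adjusted p was 0.729. An unadjusted p under 0.05 was reached by 553 genes (3.98%), 299 of them higher in KYZY (2.15%) and 254 lower (1.83%), where 694 were expected by chance. The 3 KYZY and 3 stress libraries did not overlap in 1277 genes (9.19%), of which 522 were higher (3.76%) and 755 lower (5.44%) in KYZY, and 50.8% of all genes had a log2 fold change above 0. DESeq2's Wald test on the same libraries called 13 of 13808 genes (0.0941%), 10 higher and 3 lower in KYZY. The words higher and lower therefore describe the levels in these libraries, and no gene is called as changed by edgeR in the fit of all 9 libraries.

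The data also show which changes they leave possible. For 5390 genes (38.8%) the 95% interval of the fold change lay within 2-fold in either direction, and for the other genes the interval reached larger changes. The share of genes with so narrow an interval differed by level: it was reached by 3 of 4128 genes averaging under 1 CPM, 1644 of 4695 between 1 and 10 CPM, 2789 of 3754 between 10 and 100 CPM (74.3%), 860 of 1145 between 100 and 1000 CPM (75.1%) and 94 of 168 from 1000 CPM (56%). The median SE was smallest between 10 and 100 CPM, at 0.249, and 0.34 in the most abundant class. Zbed3, a member of the subcortical maternal complex and the most abundant messenger RNA, was at 53300, 42400 and 41200 CPM in KYZY against 46100, 48300 and 47600 CPM in stress libraries, with an interval of -0.77 to 0.67 on the log2 scale. For Gdf9 the interval was -0.89 to 0.57. Changes beyond 2-fold thus lay outside the intervals of these abundant transcripts, while smaller ones lay within them.

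**Figure D2:**
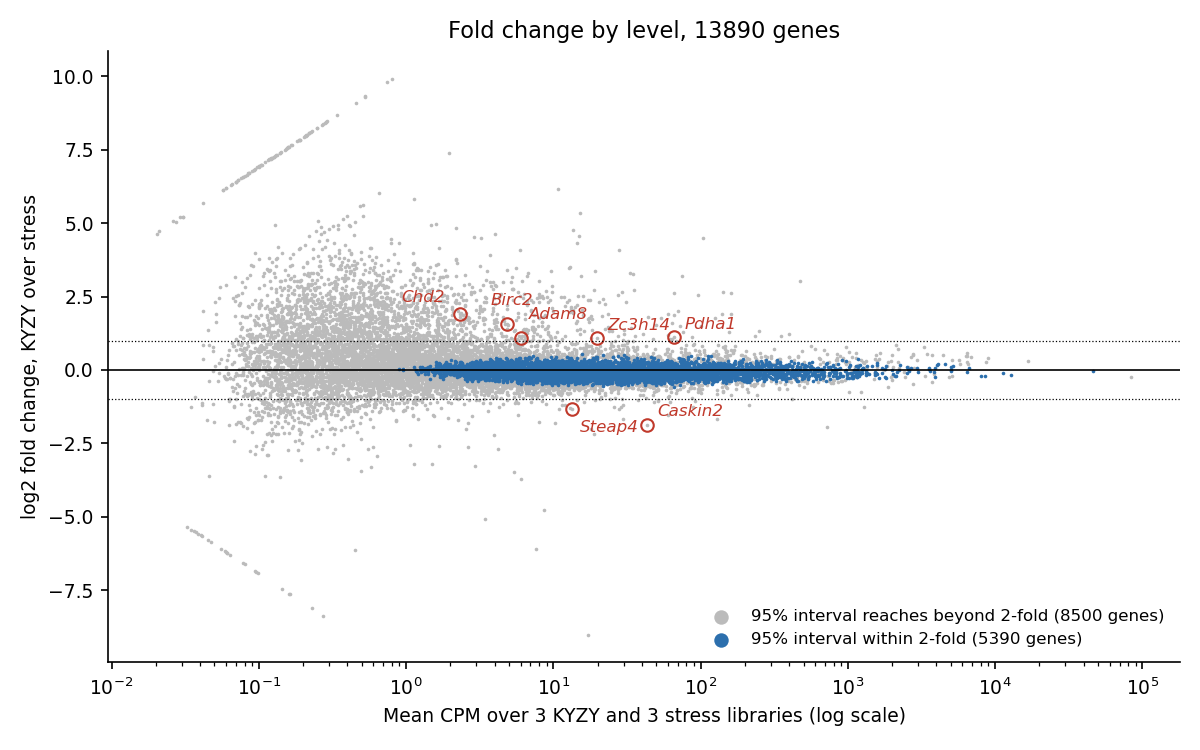
log2 fold change of KYZY over stress (vertical axis) against the mean CPM of the 6 libraries (horizontal axis, log scale) for 13890 genes. The 5390 blue genes have a 95% interval within 2-fold, dotted lines mark 2-fold, and red circles mark 7 of the non-overlapping genes of small p, among them Caskin2 at -1.86 and Pdha1 at 1.12.

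Among genes with non-overlapping groups and at least 1 CPM in the higher group, the 30 of smallest p were 16 higher and 14 lower in KYZY, with absolute log2 fold changes of 0.68 to 3.33. All 30 kept their direction without each library in turn and in KYZY 1 against stress 1 and 2. They were picked by this very comparison, so that stability is no independent support. The control mean lay on the KYZY side of the stress mean in 29 of the 30. The same held for 500 of the 553 genes with an edgeR unadjusted p under 0.05. Because the choice favours genes in which the stress level is extreme, this position is no independent sign of a return to control levels. The plot of the 12 leading genes shows their levels library by library.

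Caskin2, a gene for a scaffold protein of the CASK-interacting family with a role in endothelial cells, had the smallest p. It was at 19.4, 15.3 and 21.3 CPM in KYZY libraries, against 79.5, 67.2 and 57.1 CPM in stress and 44.9, 31.6 and 21.5 CPM in control libraries. The highest KYZY library lay below the lowest stress library by more than the whole spread of either group, and control spanned the range between them. The log2 fold change was -1.86 with an SE of 0.273 (95% interval -2.47 to -1.26; edgeR adjusted p = 0.729). DESeq2 and voom with library weights both called it, and over all alternatives its adjusted p ran from 5.29e-06 to 1. The gene lies on the minus strand of chromosome 11 (115799183 to 115813639, GRCm38) and shares exon sequence with the antisense gene Tmem94. The protocol keeps no strand, so reads in that overlap cannot be assigned, and Tmem94 itself was at 4.94, 3.13 and 2.82 CPM in KYZY against 4.32, 5.72 and 3.38 CPM in stress libraries.

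Pdha1 is the gene of E1 alpha, the pyruvate dehydrogenase subunit whose phosphorylation switches the complex off, and lies on chromosome X (160122209 to 160138413, minus strand). It was at 85.1, 95.6 and 90.4 CPM in KYZY libraries, against 44.3, 34.6 and 45.5 CPM in stress and 98.2, 79.4 and 67.9 CPM in control libraries. Every KYZY library stood above every stress library, with little scatter within either group, and the control range was close to that of KYZY. The log2 fold change was 1.12 with an SE of 0.203 (95% interval 0.67 to 1.57; edgeR adjusted p = 0.935), and it was also 1.12 in KYZY 1 against stress 1 and 2. DESeq2 called it, and over all alternatives its adjusted p ran from 0.000716, in DESeq2, to 1. Its antisense neighbour Map3k15 was at 1.39 CPM or less in all 6 libraries.

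Chd2, a chromatin remodeller that helps deposit the histone variant H3.3, was at 4.26, 3.86 and 2.80 CPM in KYZY, 1.26, 1.07 and 0.574 CPM in stress and 2.86, 3.74 and 3.39 CPM in control libraries. Stress was the low group, and KYZY and control covered the same range. The log2 fold change was 1.90 with an SE of 0.349 (edgeR adjusted p = 0.935). An unnamed same-strand transcript that overlaps its exons, 1810026B05Rik, was at 0.758, 1.32 and 1.00 CPM in KYZY against 0.0123, 0.0785 and 0.310 CPM in stress libraries, so both annotations were higher in KYZY and reads of the overlap could belong to either. Chd2 lies on the minus strand of chromosome 7 (73426638 to 73541830).

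Zc3h14, a poly(A)-binding zinc finger protein that limits tail length, was at 19.7, 27.6 and 33.0 CPM in KYZY, 11.4, 13.6 and 12.8 CPM in stress and 19.1, 24.7 and 30 CPM in control libraries. Again the stress libraries lay together and below all others. Adam8, a membrane metalloprotease, was at 6.65, 9.97 and 8.04 CPM in KYZY against 4.13, 3.75 and 3.65 CPM in stress libraries. The log2 fold changes were 1.09 with an SE of 0.240 for Zc3h14 and 1.10 with an SE of 0.229 for Adam8 (edgeR adjusted p = 0.935 for both), and DESeq2 called both. KYZY 1 was the lowest of its group in each, and for KYZY 1 against stress 1 and 2 the values were 0.67 and 0.77.

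**Figure D3:**
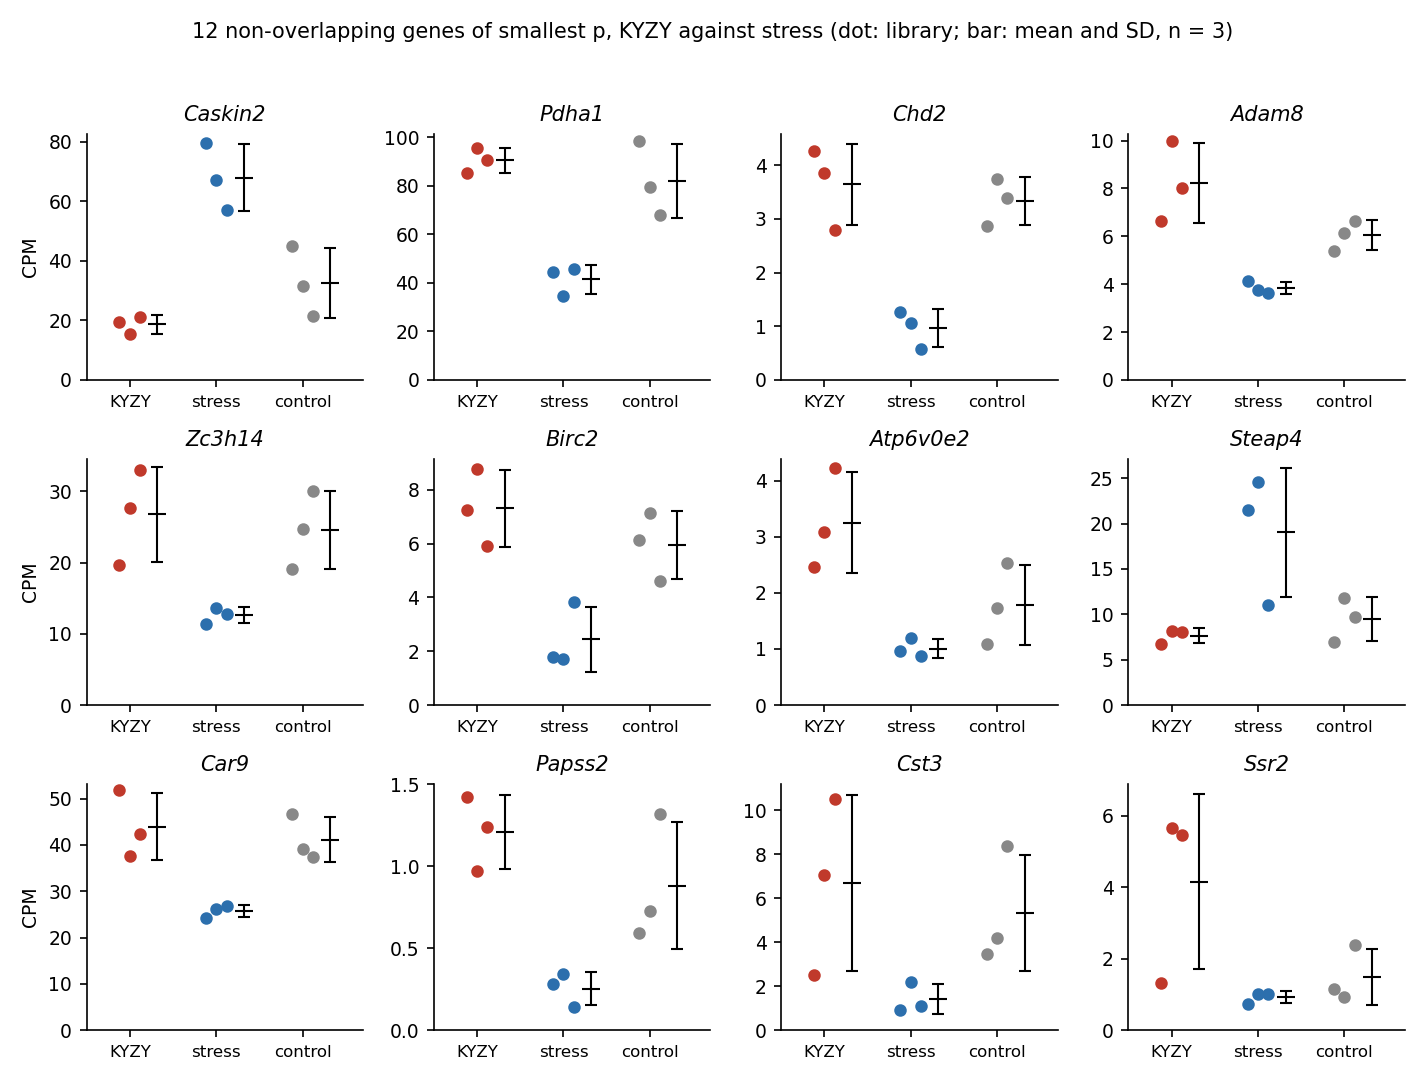
CPM of the 12 non-overlapping genes of smallest p in KYZY, stress and control libraries, with 1 dot per library and a bar for the mean and SD (n = 3). Pdha1, Chd2, Adam8, Zc3h14, Birc2, Atp6v0e2, Car9, Papss2, Cst3 and Ssr2 are higher in KYZY than in stress libraries, and Caskin2 and Steap4 are lower.

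Further genes of the 30 were higher in KYZY. Birc2, an inhibitor of apoptosis that ubiquitinates its partners, was at 7.25, 8.78 and 5.90 CPM in KYZY against 1.80, 1.71 and 3.83 CPM in stress libraries (log2 fold change 1.58, SE 0.350). Car9, a membrane carbonic anhydrase known as a target of hypoxia signalling, was at 51.8, 37.6 and 42.3 CPM against 24.2, 26.1 and 26.9 CPM, with a log2 fold change of 0.77. Stress libraries lay close together for Car9, and KYZY libraries were wider. Papss2, which makes the sulfate donor of the cell, had a log2 fold change of 2.24 at about 1 CPM. Polm, a DNA polymerase of end joining, and Twistnb, a subunit of RNA polymerase I, had 0.80 and 0.81.

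Some of the higher genes had a smaller difference once the marker-rich libraries were left out. Cst3, a secreted protease inhibitor, was at 2.51, 7.08 and 10.5 CPM in KYZY against 0.932, 2.18 and 1.09 CPM in stress libraries, and Ssr2, a subunit of the translocon-associated complex, at 1.33, 5.65 and 5.47 CPM against 0.724, 1.01 and 1.02 CPM. In both genes KYZY 2 and KYZY 3, the KYZY libraries of high cumulus marker level, carried most of the difference. Stress 3, also marker-rich, was below stress 2 in Cst3 and level with it in Ssr2. The part of other cells in these genes was not tested. The log2 fold changes were 2.25 for Cst3 and 2.17 for Ssr2 with all libraries, and 0.71 and 0.63 in KYZY 1 against stress 1 and 2. Rnf215 and 5430405H02Rik also dropped by more than 1.5 times in fold, to 0.72 and 1.64, and Slc27a1, a fatty acid transporter, was at 2.60, against 1.34, 2.83 and 3.33 with all libraries. Plekhb1 was larger there, at 2.43 against 1.49.

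The lower genes include membrane proteins and an export factor. Wfs1, the endoplasmic reticulum membrane protein wolframin, was at 77.6, 69.5 and 66.5 CPM in KYZY against 117, 127 and 118 CPM in stress and 81.4, 60.9 and 54.4 CPM in control libraries. The gap between the groups was several times the spread within either, and the log2 fold change was -0.76 with an SE of 0.199 (edgeR adjusted p = 0.935). Egfr, the epidermal growth factor receptor, was at 13.9, 16.0 and 12.5 CPM against 24.0, 24.3 and 21.9 CPM in stress libraries, and Nxt1, a cofactor of mRNA export, at 30.2, 33.5 and 25.9 CPM against 52.5, 52.7 and 39.7 CPM. Steap4, a metalloreductase, was at 6.68, 8.16 and 8.08 CPM against 21.5, 24.6 and 11 CPM, so its stress group was the scattered one and stress 3 lay nearest to KYZY. Rtl6, derived from a retrotransposon, had a log2 fold change of -1.21, and -2.01 in KYZY 1 against stress 1 and 2.

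Other genes of the 30 were lower in KYZY. Htra2, a protease of the mitochondrial intermembrane space, was at 11.3, 11.3 and 9.28 CPM in KYZY against 17.3, 18.1 and 15.9 CPM in stress libraries (log2 fold change -0.68, SE 0.193), although its exons overlap those of the antisense genes Aup1 and Loxl3. Mgme1, a nuclease that maintains the mitochondrial genome, was at 4.99, 6.01 and 5.51 CPM against 9.71, 10.5 and 7.79 CPM. Groups did not overlap in either gene. Tet1, which oxidises methylcytosine, was at 0.379, 0.323 and 0.490 CPM against 1.30, 1.92 and 0.730 CPM, a log2 fold change of -1.73 at a low level. Recql5, a DNA helicase, had -0.87, Mpzl1 -0.77, Nrap -1.10 and Rnf32 -1.05. In 10 of the 30 genes the exons overlap a neighbour that the tables also list.

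Of 1313 genes averaging at least 100 CPM, 69 had non-overlapping groups, 15 higher and 54 lower in KYZY. That was 5.5% of genes between 100 and 1000 CPM and 3.57% from 1000 CPM, less than the 9.19% of all genes. Pnpla3, a lipase and acyltransferase of lipid droplets, was at 877, 573 and 825 CPM in KYZY against 1960, 1910 and 1580 CPM in stress and 2220, 1560 and 777 CPM in control libraries. Every KYZY library lay below every stress library, and control 3 lay with KYZY. The log2 fold change was -1.26 with an SE of 0.367 (edgeR adjusted p = 0.935). Nfya, the regulatory subunit of the CCAAT-binding factor NF-Y, was at 296, 469 and 117 CPM against 1100, 1070 and 1240 CPM in stress and 1360, 972 and 136 CPM in control libraries. Here the KYZY libraries differed widely among themselves, control 3 again lay with the lowest, and the log2 fold change was -1.95 with an SE of 0.735.

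Smaller differences in abundant genes ran both ways. Ppme1, a methylesterase of protein phosphatase 2A, had a log2 fold change of -0.87, Cttnbp2nl -0.84, the homeobox gene Gbx2 -0.80, the planar polarity cadherin Celsr1 -0.76, Lnx2 -0.71 and Il17rd -0.68. Usp37, a deubiquitinase of the cell cycle, was at 217, 215 and 157 CPM in KYZY against 112, 105 and 151 CPM in stress libraries (0.68). Parp12, a mono-ADP-ribosyltransferase of the interferon response, was at 4130, 4260 and 4110 CPM against 3350, 2770 and 1150 CPM, with an interval of -0.04 to 1.61 that includes no difference. KYZY was tight for Parp12 and the stress group was spread by stress 3. Ywhaz, a 14-3-3 protein, had 0.52, Gch1 0.52, Fkbp1a 0.50, Rgs17 0.46, Me1 0.38 and Cecr2 0.36, each with an interval that includes 0.

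Genes of pyruvate oxidation and the citric acid cycle were examined around Pdha1. Of 37 listed genes 36 were tested, 11 higher and 25 lower in KYZY, with a median log2 fold change of -0.14 against 0.01 over all genes. Groups did not overlap in 8 of the 36 (22.2%, against 9.19% of all genes), and 5 had an edgeR unadjusted p under 0.05 (13.9%, against 3.98%). Pdha1 was the higher one of the 8, and the other 7 were lower. The median was -0.21 to -0.09 without each library in turn. In KYZY 1 against stress 1 and 2 it was -0.13, near the -0.09 of all genes there. The median was thus below 0 in both settings, but the second has 1 KYZY library and a median below 0 over all genes. Many of these genes lie between 10 and 100 CPM, a range in which 36.1% of all genes were higher in KYZY.

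Within the pyruvate dehydrogenase complex the subunits differed in direction. Pdhb, the E1 beta subunit that pairs with the product of Pdha1, was at 60.9, 55.0 and 50.6 CPM in KYZY against 71.3, 77.6 and 74.5 CPM in stress libraries (log2 fold change -0.42, 95% interval -0.85 to 0.00). The E1 partner therefore stood lower in every KYZY library than in every stress library while Pdha1 stood higher. The E2 gene Dlat and the E3-binding gene Pdhx had log2 fold changes of -0.08 and -0.11, and the E3 gene Dld had 0.24, all with overlapping groups.

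All 6 tested regulators of the complex were lower in KYZY. Pdk1, a kinase that inactivates the complex by phosphorylating its E1 alpha subunit, was at 8.13, 5.96 and 8.65 CPM in KYZY against 14.6, 14.6 and 16.7 CPM in stress and 18.5, 15.7 and 7.40 CPM in control libraries. The log2 fold change was -1.01 with an SE of 0.313 (edgeR unadjusted p = 0.00913), and control 3 lay with KYZY. The kinase Pdk2 (log2 fold change -0.58) and the phosphatase regulator Pdpr (-0.35) also had non-overlapping groups, and Pdk3, Pdp1 and Pdp2 were between -0.24 and -0.14. The 4 pyruvate carriers had a median of -0.40 with all libraries, where Slc16a1 had -0.02, and of -0.10 with 2 higher and 2 lower in KYZY 1 against stress 1 and 2. With RLE scaling 1 of the 4 was higher. Mpc2, of the mitochondrial carrier, was at 5.61, 4.16 and 3.86 CPM against 8.75, 9.44 and 4.77 CPM (-0.75), where stress 3 overlapped KYZY.

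In the cycle, Ogdh, the E1 subunit of 2-oxoglutarate dehydrogenase, was at 58.1, 44.4 and 37.6 CPM in KYZY against 80.9, 77.8 and 78.1 CPM in stress and 53.9, 55.0 and 37.5 CPM in control libraries. Stress libraries lay close together, and KYZY and control covered the same lower range. The log2 fold change was -0.76 with an SE of 0.222 (edgeR unadjusted p = 0.00668), and -0.43 in KYZY 1 against stress 1 and 2. Fh1, fumarase, was at 21.5, 18.1 and 13.4 CPM against 22.4, 22.8 and 22.0 CPM (-0.34), so its groups lay close to each other without overlap. Citrate synthase, Cs, the most abundant member, was at 867, 575 and 539 CPM against 637, 648 and 665 CPM, with a log2 fold change of 0.02 and an interval of -0.59 to 0.63. Idh1, the cytosolic isocitrate dehydrogenase, was at 23.2, 166 and 101 CPM against 17.9, 33.8 and 44.7 CPM, a log2 fold change of 1.59 that was -0.14 in KYZY 1 against stress 1 and 2.

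**Figure D4:**
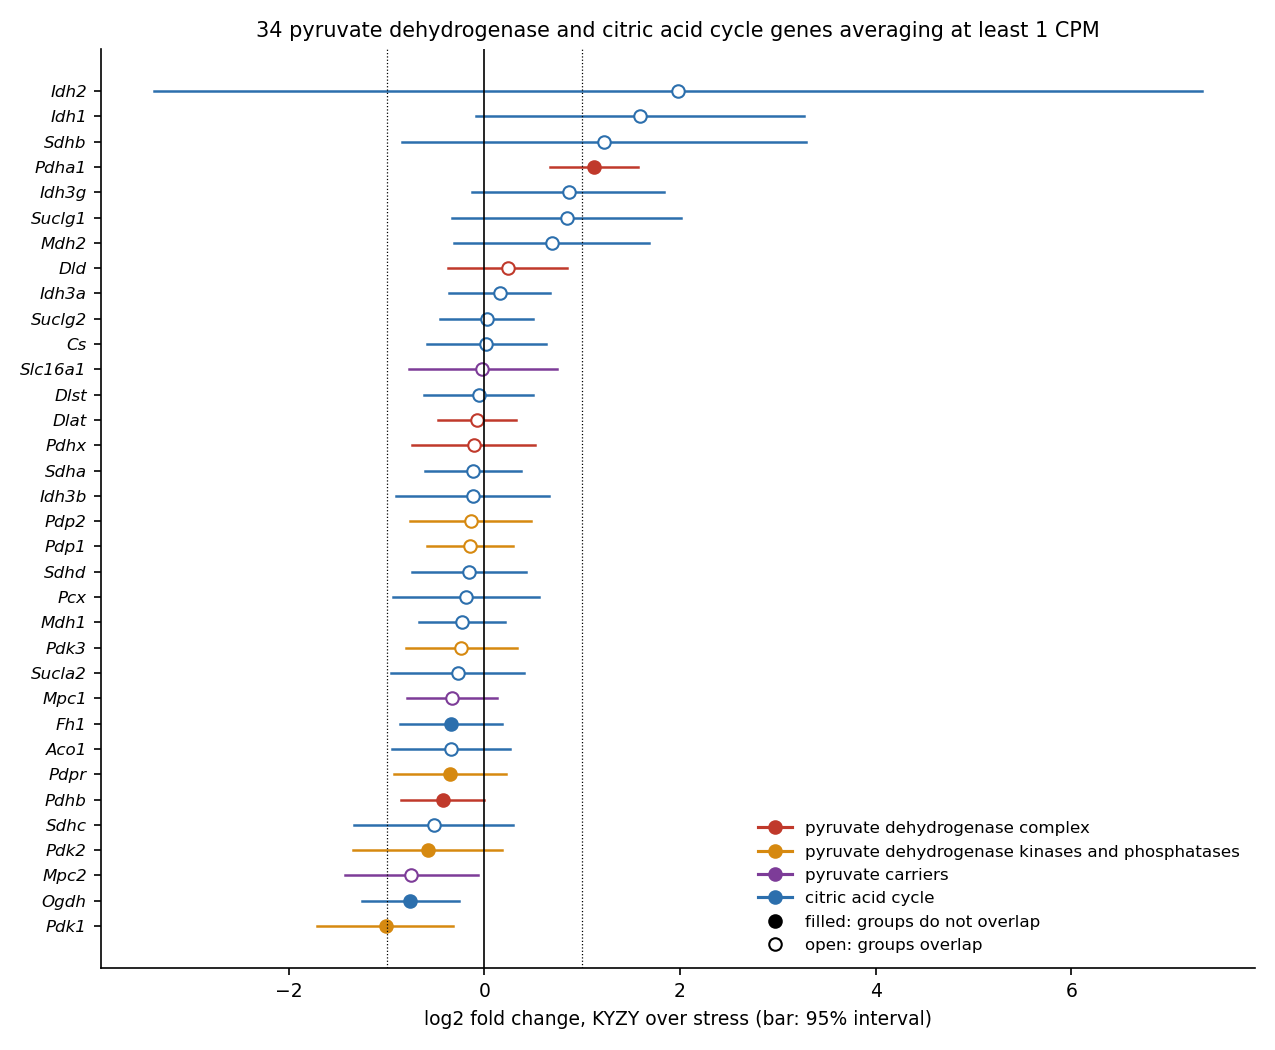
log2 fold change of KYZY over stress with its 95% interval for 34 of the genes of pyruvate oxidation and the citric acid cycle that average at least 1 CPM, ordered by value and coloured by role. Filled points have non-overlapping groups, and of these Pdha1 lies at 1.12 and the other 6 lie between -1.01 and -0.34. Not every such gene is drawn, so the 7 lower non-overlapping genes of the list appear here as 6.

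Of 78 nuclear genes of oxidative phosphorylation 66 were higher in KYZY, with a median log2 fold change of 0.75, but in KYZY 1 against stress 1 and 2 the median was -0.11 with 31 of 78 higher, and without KYZY 3 it was 0.31. Groups did not overlap in 5 of 78 (6.41%, against 9.19% of all genes), and 11 had an unadjusted p under 0.05 (14.1%, against 3.98%). Cox6b1, of cytochrome c oxidase, was at 5.59, 14.7 and 16.3 CPM in KYZY against 4.91, 6.05 and 7.34 CPM in stress libraries, with KYZY 1 inside the stress range. Cox6c, of the same complex, was at 19.9, 15.8 and 28.8 CPM against 12.9, 11.8 and 10.1 CPM and was higher in each KYZY library (0.89, and 0.70 in KYZY 1 against stress 1 and 2). The abundant Atp5b, of ATP synthase, had a log2 fold change of 0.16, and Uqcrc2, of complex III, -0.19 (0.61 and 0.24 in KYZY 1 against stress 1 and 2). Mitochondrial dynamics and genome genes were 10 higher and 12 lower of 22, with a median of -0.01 (-0.12 there) and 2 with non-overlapping groups (9.09%). Opa1, which fuses the inner membrane, was at 21.2, 19.3 and 21.0 CPM against 23.4, 32 and 29.3 CPM (-0.46), and Rmnd1, a factor of mitochondrial translation, was at 0.932, 0.808 and 1.45 CPM against 0.343, 0.218 and 0.512 CPM (1.57).

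Cytosolic ribosomal protein genes had the largest shift of any list outside the cell markers. Of 82 members 80 were higher in KYZY, with a median of 1.5, and groups did not overlap in 3 (3.66%, against 9.19% of all genes). Rpl15, of the large subunit, was at 13.6, 37.0 and 47.6 CPM in KYZY against 8.55, 13.1 and 15.7 CPM in stress libraries, with KYZY 1 between stress 2 and stress 3. Summed over the list, KYZY libraries held 2030, 3630 and 5260 CPM and stress libraries 1590, 2480 and 2240 CPM. In KYZY 1 against stress 1 and 2 the median was -0.33 with 62 of 82 lower, and without KYZY 3 it was 0.91. Rpl4 and Rps15a, the members with non-overlapping groups besides Rpl29, had 0.28 and -0.20.

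The medians of these 2 lists fell below 0 in KYZY 1 against stress 1 and 2, the libraries of low cumulus marker level. Their sums did not follow the markers in every library. Ribosomal protein genes summed to 2480 CPM in stress 2 and 2240 CPM in stress 3. Oxidative phosphorylation genes summed to 2070 CPM in KYZY 1 and 1820 CPM in KYZY 2. The part of other cells in the result was not tested. Of 30 tested cumulus and granulosa cell markers 28 were higher in KYZY, with a median log2 fold change of 1.74 and 0.14 in KYZY 1 against stress 1 and 2. The 40 markers summed to 843, 2230 and 1640 CPM in KYZY and 760, 820 and 1570 CPM in stress libraries. Cyp11a1, which starts steroid synthesis from cholesterol, was at 6.35, 165 and 428 CPM in KYZY against 1.12, 10.6 and 14.7 CPM in stress libraries, and Scarb1, the receptor that takes up cholesterol from lipoproteins, at 21.8, 132 and 66.7 CPM against 20.4, 25 and 30.6 CPM. Has2 and Tnfaip6, which build and bind the hyaluronan of the expanded cumulus, were at or near 0 in KYZY 1, stress 1 and stress 2. In the marker-rich libraries Tnfaip6 reached 16.5 CPM in KYZY 2, 10.4 CPM in KYZY 3 and 5.14 CPM in stress 3. Oviduct epithelium markers summed to 15.2, 12.6 and 40.6 CPM in KYZY and 10.0, 15.9 and 7.19 CPM in stress libraries. Stroma and endothelium markers summed to 45.8, 57.6 and 131 CPM in KYZY and 42.8, 51.5 and 39.8 CPM in stress libraries, and blood and immune cell markers to 97.2, 171 and 103 CPM against 126, 118 and 96.9 CPM. More attached cells and more RNA per cell cannot be told apart in such pooled lysates.

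Stress defence was spread over several lists. Of 43 tested antioxidant genes 33 were higher in KYZY (median 0.54, and -0.05 in KYZY 1 against stress 1 and 2), and groups did not overlap in 3 (6.98%, against 9.19% of all genes). Gpx1, glutathione peroxidase 1, was at 3.4, 6.15 and 16.0 CPM in KYZY against 2.99, 2.88 and 1.94 CPM in stress libraries, and its log2 fold change of 1.71 was 0.23 in KYZY 1 against stress 1 and 2. Glrx3, a glutaredoxin of iron handling, was at 1.25, 1.48 and 1.55 CPM against 0.0981, 0.715 and 0.388 CPM (1.82, and 1.63 there), and Nfe2l2, the transcription factor NRF2, at 3.71, 3.38 and 4.59 CPM against 2.11, 2.91 and 2.50 CPM (0.63, and 0.58 there). Glrx3 and Nfe2l2 were higher in each KYZY library, marker-rich or not, with unadjusted p of 0.0477 and 0.0483 by edgeR. Prdx5, a peroxiredoxin, had 0.93 (-0.24 there), and Gss, of glutathione synthesis, 1.63 (0.92 there), both with overlapping groups.

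Of 34 heat shock and unfolded protein response genes, 19 were higher in KYZY (median 0.07, and -0.02 in KYZY 1 against stress 1 and 2), and 4 had non-overlapping groups (11.8%, near the 9.19% of all genes). Dnajb4, an HSP40 chaperone, was at 156, 119 and 111 CPM in KYZY against 318, 145 and 423 CPM in stress libraries, with stress 2 inside the KYZY range (log2 fold change -1.20, SE 0.364). Atf4, the transcription factor of the integrated stress response, was at 41.7, 33.2 and 50.8 CPM against 25.2, 13.0 and 27.6 CPM (0.93), and Sel1l, of the degradation of misfolded endoplasmic reticulum proteins, had -0.37. Sel1l and Wfs1 were lower and Atf4 higher in every KYZY library than in any stress library. Of 23 glucocorticoid response genes 17 were higher (median 0.19, and -0.45 in KYZY 1 against stress 1 and 2), with no group separated and no unadjusted p under 0.05. Fkbp5, a cochaperone that glucocorticoids induce, was at 847, 539 and 564 CPM against 717, 742 and 740 CPM (-0.17, and 0.23 there), and Hsp90aa1, a chaperone of the receptor, had 0.08 (0.47 there).

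DNA repair genes were lower in 30 of 42 cases, with a median log2 fold change of -0.16 and -0.10 in KYZY 1 against stress 1 and 2. All 7 members with non-overlapping groups (16.7%, against 9.19% of all genes) were lower in KYZY. They include the mismatch repair genes Msh3 and Msh6, whose products recognise mispaired bases. Msh3 was at 45.7, 39.7 and 42.7 CPM in KYZY against 50.5, 54.2 and 62.4 CPM in stress libraries (-0.38), and Msh6 had -0.30. Ogg1, a glycosylase that removes oxidised guanine, was at 3.17, 2.19 and 2.67 CPM against 4.17, 7.56 and 3.31 CPM (-0.91), and Xrcc2, Atr and Parp1 had -0.37 to -0.34. The differences were small, and each of Msh3, Msh6, Xrcc2, Atr and Parp1 had an interval within 2-fold. Non-overlapping genes of any function were also mostly lower at middle levels. They were 65 higher and 345 lower between 10 and 100 CPM, and 184 higher and 226 lower between 1 and 10 CPM.

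Autophagy and lysosome genes did not lean one way, with 28 of 48 higher (median 0.10, and 0.00 in KYZY 1 against stress 1 and 2), but 8 had non-overlapping groups (16.7%, against 9.19% of all genes), 4 in each direction. Subunits of the vacuolar proton pump differed. Atp6v1a, the catalytic subunit, was at 44.8, 50.6 and 56.6 CPM in KYZY against 73.9, 85.3 and 100 CPM in stress libraries (-0.77, SE 0.215), while the minor subunits Atp6v0e2 and Atp6v1f had 1.69 and 0.60. The first of these was at 2.46, 3.08 and 4.22 CPM in KYZY against 0.957, 1.19 and 0.869 CPM in stress libraries. Wipi1, which binds the lipid of the growing autophagosome, had 1.05, and Atg9a, the membrane scramblase of autophagy, -0.70.

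In the apoptosis list, 23 of 32 genes were higher (median 0.50, and 0.15 in KYZY 1 against stress 1 and 2) and 4 had non-overlapping groups (12.5%, near the 9.19% of all genes), each with higher levels in KYZY. Besides Birc2 they were Bad, Bcl2l11 and Pmaip1, which promote cell death. Bcl2l11, the best measured, was at 12.0, 12.6 and 12.4 CPM in KYZY against 11.1, 11.3 and 11.9 CPM in stress libraries, a log2 fold change of 0.11 with an interval of -0.29 to 0.51. Bad was at 0.474, 0.925 and 1.45 CPM against 0.343, 0.349 and 0.124 CPM (1.79), a level near the detection floor.

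Lists close to oocyte function differed in how well they were bounded. None of 32 maternal-effect genes had non-overlapping groups or an unadjusted p under 0.05, and 23 of them had an interval within 2-fold (71.9%, against 38.8% of all genes, and 74.3% of genes between 10 and 100 CPM). The median was -0.09, and 0.26 in KYZY 1 against stress 1 and 2. Npm2, a histone chaperone of the egg, had the largest absolute value at -0.73 (95% interval -1.64 to 0.18). Of 13 zona pellucida and oocyte-secreted factors 4 had an interval within 2-fold (30.8%). Of 59 meiosis and spindle genes 43 had such an interval (72.9%), and 4 had non-overlapping groups (6.78%, against 9.19% of all genes). Their median was -0.09 with 22 higher, and 0.15 with 43 higher in KYZY 1 against stress 1 and 2. In that setting the median over all genes rose with level, from -0.37 under 1 CPM to 0.24 between 100 and 1000 CPM and 0.49 above. A positive value there is therefore not particular to these lists. Ccnb1, the cyclin partner of CDK1, was at 6610, 4210 and 4680 CPM in KYZY against 3680, 4320 and 6400 CPM in stress libraries (0.11, 95% interval -0.62 to 0.84, and 0.74 in KYZY 1 against stress 1 and 2). Spire1, an actin nucleator of spindle migration, was at 509, 434 and 413 CPM against 305, 384 and 409 CPM (0.30), Bora, an activator of Aurora A, had -0.33, and Pkmyt1, a kinase that restrains CDK1, -0.22.

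Maternal mRNA storage and decay genes were lower in 39 of 63 cases (median -0.10, and 0.01 in KYZY 1 against stress 1 and 2). Groups did not overlap in 2 members (3.17%, against 9.19% of all genes), Zc3h14 and Patl2. Patl2, an RNA-binding protein needed for oocyte maturation, was at 5.09, 4.05 and 4.10 CPM in KYZY against 6.08, 7.13 and 5.45 CPM in stress libraries (-0.50, SE 0.249). DNA methylation and histone modification genes were lower in 35 of 55 cases (median -0.10 with all libraries and in KYZY 1 against stress 1 and 2). Groups did not overlap in 3 of the 55 (5.45%, against 9.19% of all genes), which were Dnmt3b, Tet1 and Chd2. Dnmt3b, a methyltransferase that sets new methylation, was at 10.7, 11.8 and 10.2 CPM in KYZY against 14.7, 20.9 and 12.1 CPM in stress libraries (-0.54). It and Tet1 were the 2 of 10 DNA methylation genes so separated (20%), against 0 of 31 histone modification genes. Signalling genes of the PI3K, mTOR and insulin pathways were lower in 24 of 34 cases (median -0.12), with Tsc2, which restrains mTOR, at -0.45 and non-overlapping.

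Glycolysis genes were higher in 16 of 19 cases (median 0.61, and 0.14 in KYZY 1 against stress 1 and 2), with 0 non-overlapping. Pgk1, phosphoglycerate kinase, had 0.82 and Gpi1, glucose-6-phosphate isomerase, 0.43. Proteasome genes were higher in 29 of 40 cases (median 0.16, and 0.00 there). Groups did not overlap in 5 of the 40 (12.5%, near the 9.19% of all genes). Psmb6, a catalytic subunit, was at 38.3, 30.5 and 41.5 CPM in KYZY against 24.4, 29.5 and 30.2 CPM in stress libraries (0.39). Fetub, an inhibitor that keeps the zona pellucida penetrable, was at 5.01, 3.86 and 5.55 CPM against 8.98, 6.90 and 6.12 CPM (-0.61). Lipid genes were higher in 24 of 36 cases (median 0.16, and -0.15 there) and translation factors in 31 of 45 (0.11 and 0.12). Cohesin and condensin genes were higher in 14 of 27 cases (0.02 and 0.09). Calcium and egg activation genes were higher in 15 of 30 (-0.01 and -0.10), with 4 non-overlapping (13.3%, against 9.19% of all genes). Zona pellucida and oocyte-secreted factors, higher in 6 of 13 cases (-0.13 and 0.31), completed the set.

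**Figure D5:**
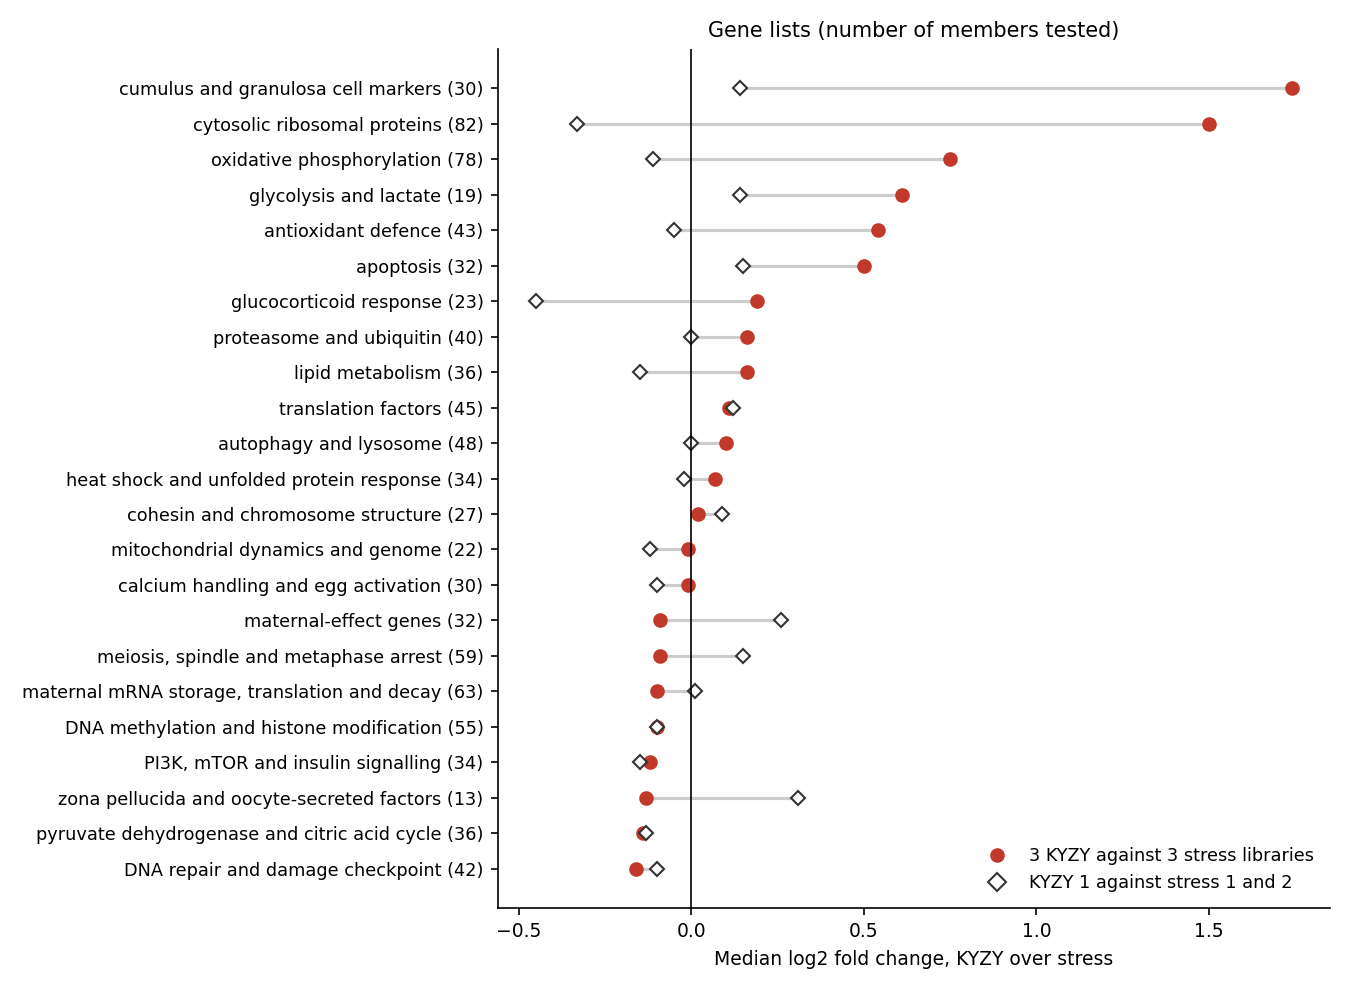
Median log2 fold change of KYZY over stress for 23 gene lists, with the number of members tested in brackets. Red dots use the 3 KYZY and 3 stress libraries, and open diamonds use KYZY 1 against stress 1 and 2. Ribosomal protein genes lie at 1.5 and -0.33, oxidative phosphorylation at 0.75 and -0.11, and pyruvate oxidation and the citric acid cycle at -0.14 and -0.13.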

How the data were processed

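RNA was measured in 9 libraries, 1 per mouse, of which 3 KYZY and 3 stress libraries are compared. The authors deposited 1 table of expected counts per library, whole numbers per gene symbol that are not normalized. The unit was read from the values, in which 4 is more frequent than 3 and 5, so 1 read pair appears to be worth about 4 units and the floor for a gene at 0 was 3 read pairs (12 counts, 0.105 to 0.245 CPM, for counting error only). Per the submitters' processing notes the tools were bcl2fastq 2.20, Trim Galore, HISAT2, StringTie and DESeq2, with builds GRCm38 and mm10 and no roles or settings. Per the labels' protocols, cDNA was made with SMART-Seq v4 and cut with Tn5, without molecular identifiers or strand. Coordinates are those of GENCODE vM21 on GRCm38.

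Counts were taken as deposited and fitted in R 4.3.3 with edgeR 4.0.16. After TMM scaling, filterByExpr (minimum count 10, minimum total 15) kept 13890 genes with 99.9832% of counts. A robust quasi-likelihood fit with 1 mean per group on all 9 libraries (6 residual degrees of freedom, biological coefficient of variation 0.611) was tested 2-sided, with Benjamini-Hochberg adjustment over all genes and a threshold of 0.05. Standard errors and 95% intervals are from the same fit. On simulated data of this comparison, 50 of 13890 genes were changed per fold. The test recovered 0% of 1.5-fold and of 2-fold changes, 58% of 4-fold and 80% of 8-fold changes, with 6 false calls of 12934. Intervals held the true value in 95.5% of cases. In those data 3443 genes had an interval within 2-fold, against 5390 in the deposited counts. Whether the recovery and the 95.5% carry over to the deposited counts, or to genes under 1 CPM, was not tested.

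The named genes were the 30 of smallest p with non-overlapping groups and at least 1 CPM in the higher group, among genes of at least 100 CPM the 8 of largest fold change in each direction, the 3 most abundant members and the 3 of smallest p of each list, the genes called by alternatives, and all cell type markers. Other list members are named because their groups did not overlap, their unadjusted p was under 0.05 or their role is central, and were chosen after their values were seen. Some members counted in the lists are not reported here by name. The comparison and its 26 lists (996 symbols) were chosen with earlier results of these data known. DESeq2 1.42.0, voom of limma 3.58.1, other scaling, filters and subsets of libraries were tried as alternatives.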

Additional observations from a re-analysis of the deposited data

How the results depend on the processing

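The count of genes called was 0 in edgeR and stayed 0 with RLE scaling, no filter, a stricter filter, counts divided by 4 and without Rn45s. DESeq2 called 13 genes, voom with library weights 1 (Caskin2), the fit of the 6 KYZY and stress libraries alone 1 (Prr18), and leaving out each library 0 to 1 (Prr18, without control 3). Without the 4 libraries of highest cumulus marker level, 115 genes were called (49 higher, 66 lower in KYZY); that fit has KYZY 1 alone in its group and assumes that it varies like the others. Genes with an unadjusted p under 0.05 numbered 257 without stress 1, 293 without stress 2, 304 without KYZY 3, 1106 without stress 3, 1248 without KYZY 1, 1196 without the 4 libraries, 1043 with the replicate block and 2837 with voom, against 553; the cause was not tested. The replicate block called 0 genes. The labels number the mice without saying that numbers pair them, and same-numbered KYZY and stress libraries correlated in their deviations from the group means at 0.402, -0.146 and 0.171. With control included, 7 of 9 same-numbered pairs were over 0.1 (-0.146 to 0.559), and pairs of different number ran from -0.623 to 0.326. Since not every same-numbered pair was over 0.1, the numbers were not taken as pairs in the main fit. Any structure shared by number thus stayed in its spread. The count of genes bounded within 2-fold ran from 3909 (without KYZY 1) to 5866, against 5390.

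Among 132 of the named genes, 11 turned direction in 1 or more alternatives. Without the 4 libraries the log2 fold changes were -0.11 for Eef1d, 0.23 for Fkbp5, 0.37 for Gdf9, -0.14 for Idh1, -0.24 for Prdx5, -0.04 for Scarb1, 0.24 for Uqcrc2 and 0.19 for Zbed3. Leaving out single libraries gave -0.11 to 0.37 for Ccnb1, with -0.03 without stress 1 and -0.11 without KYZY 1. The range was -0.23 (without KYZY 1) to 0.17 for Cs, -0.07 (without stress 2; -0.02 without KYZY 1) to 0.29 for Hsp90aa1, -0.38 to 0.06 (without KYZY 3) for Uqcrc2 and -0.18 to 0.04 (without KYZY 3) for Zbed3. Cs was at -0.13 with voom and -0.02 with the block, and Zbed3 at 0.01 with the stricter filter. The 132 do not take in every gene that meets the naming rules, and some of the rest turned too. Uhrf1 had -0.28 with all libraries and 0.16 without the 4, and the oviduct marker Ovgp1 had 2.02 and -1.98. Genes under 1 CPM were bounded within 2-fold in 3 of 4128 cases.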

Other observations

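Genes of very low level made up most of what DESeq2 called. Of its 13 genes, 7 were listed at 0 in 2 or more of the KYZY and stress libraries. Adcyap1, which encodes the neuropeptide PACAP, was at 0.237, 0.117 and 2.37 CPM in KYZY, at 0 in all 3 stress libraries and at 0, 0 and 1.42 CPM in control libraries. C1s1 (0.0632, 0.323 and 1.65 CPM in KYZY), Flrt2 (highest in KYZY 3, 0.367 CPM in KYZY 2 and 0 in KYZY 1) and the homeobox gene Rhox8 (0, 0.235 and 1.02 CPM) were also at 0 in all stress libraries, and each was present in control 3 and at 0 in control 1 and 2. Nfam1 was at 2.40, 0.866 and 1.18 CPM in KYZY and at 0 in all stress libraries, and E2f3 at 0.316, 0.191 and 0.184 CPM and at 0. Gm11758 was at 0.0316, 0 and 0 CPM in KYZY against 0.687, 0.567 and 1.40 CPM in stress libraries. The detection floor of 0.105 to 0.245 CPM lies within these ranges.

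Prr18 was called in several alternatives. It was at 0.253, 0.235 and 0.163 CPM in KYZY against 18.2, 20.3 and 6.84 CPM in stress and 17.2, 24.7 and 0.0781 CPM in control libraries. All KYZY libraries and control 3 were near the floor, and the other 5 libraries were at 6.84 CPM or more. edgeR called it in the fit of the 6 KYZY and stress libraries and in the fit without control 3, and DESeq2 called it with an adjusted p of 0.00719, in a range of 7.64e-05 to 1 over all alternatives. Its annotation lies on chromosome 17 (8337459 to 8344113, plus strand, GRCm38).

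The share of genes higher in KYZY differed between classes of abundance and was lowest in the middle. It was 66% below 1 CPM, 51.4% from 1 to 10 CPM, 36.1% from 10 to 100 CPM, 40.5% from 100 to 1000 CPM and 54.2% from 1000 CPM, and 67.4%, 55%, 40.8%, 45.9% and 57.1% with RLE scaling. The non-overlapping genes were 258 higher and 130 lower below 1 CPM, and 65 higher and 345 lower from 10 to 100 CPM. With all libraries the medians of the log2 fold change were 0.45, 0.02, -0.10, -0.05 and 0.03 in these 5 classes. In KYZY 1 against stress 1 and 2 they rose with level, at -0.37, -0.19, 0.00, 0.24 and 0.49.

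Exon lengths in GENCODE vM21 were matched to 13679 of the tested genes of any level (98.5%). Among those of at least 10 CPM, the share higher in KYZY also fell with the exon length of the gene. It was 54.7% of 53 genes under 1 kb, 51.8% of 409 genes of 1 to 2 kb, 40.3% of 1351 genes of 2 to 4 kb, 35.3% of 1994 genes of 4 to 8 kb and 33.3% of 1198 genes of 8 kb or more. The medians of the log2 fold change were 0.06 in the shortest class and -0.11 in the longest, and 0.15 and 0.01 in KYZY 1 against stress 1 and 2.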
